A study of Drosophila melanogaster with 8 samples.

Results

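The BMP and activin pathway genes described here are 10 genes of TGF-β signaling in the fly, taken by name from the deposited lists of DNA regions enriched in dFOXO chromatin. They comprise extracellular modulators (*cv-2*, *dally*, *dlp*, *tld* and *tok*), Smad proteins (*Mad* and *Dad*), a ligand (*daw*), a receptor (*wit*) and a nuclear partner of Mad (*shn*). The lists of the 2 genotypes name 2801 genes in all, of which 2042 are in the *chico* list and 1012 in the IPC list. Of the 10 genes, 7 had a *chico* region (*cv-2*, *dally*, *dlp*, *tld*, *tok*, *Mad* and *Dad*), 4 had an IPC region (*daw*, *wit*, *dally* and *shn*) and 1, *dally*, had both. A gene in neither list could not become a member, so that membership itself is not a result.

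TGF-β ligands are secreted proteins that bring together type I and type II receptor kinases on the receiving cell. In *Drosophila* the BMP branch leads to phosphorylation of the Smad protein Mad and patterns the embryo, the wing and the neuromuscular junction, while the Activin branch leads to phosphorylation of Smox. Outside the cell, proteoglycans, binding proteins and metalloproteases set how far a ligand travels and how much of it is free. dFOXO is the fly forkhead transcription factor held out of the nucleus by insulin signaling.

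Chromatin came from whole female flies aged 15 days with reduced insulin signaling, and antibody against dFOXO was used to precipitate it (ChIP DNA), with DNA set aside before precipitation as input. The *chico* heterozygotes carried 1 copy of the *chico1* mutation in the insulin receptor substrate, on a background marked by *y1*, *cn1* and *ry506*. In the IPC-ablated flies, *Dilp2-GS-Gal4* drove *UAS-rpr*, a cell death gene, in the insulin-producing cells of the brain, and RU486 in the food switched it on in adults for 15 days, which removed these cells in part. Each genotype had 2 ChIP and 2 input samples, each from 200 to 250 flies, and the 8 samples analysed here include no wildtype or uninduced flies. The authors pooled the replicates, so each region has 1 ChIP value and 1 input value, and no spread between replicates can be given. Since whole flies were used, strong binding in few cells and weak binding in many cannot be told apart.

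The authors also followed single genes by PCR on ChIP DNA. Their oligonucleotides for the ligand gene *daw*, on 2L, and for the receptor gene *wit*, on 3L, are shown so that these assayed loci can be identified. Oligonucleotides for such an assay were also designed for *cv-2*, and they are not printed here. Each oligonucleotide printed for *daw* and *wit* has 24 bases and a GC content of 50%. None is marked in capitals because no part of the primers was singled out. Whether the amplified segments lie inside the listed regions was not determined here.
daw forward: tcattaagtccagtgcagtgcgga
daw reverse: tcaggaagcagggcttggattgta
wit forward: atttacgaagctgcgtggaatggc
wit reverse: tcgctacgatgccttgctctcttt

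In the text that follows, the tags of a region are its aligned reads, and the input tags are scaled by the authors with a factor per chromosome arm. The enrichment is the authors' ratio of ChIP to scaled input tags. Intervals are 95% exact binomial intervals of this ratio. They and the test take the scaled input tags, rounded up, as counts. Each region was tested with an exact one-sided binomial test, adjusted by the Benjamini-Hochberg method, and a region passes at an adjusted p of 0.01 or less. The adjustment was over 26819 candidate regions in *chico* but over the 763 listed regions in IPC ablation. Counts of passing regions are therefore not on a like basis in the lists. The intervals and p-values cover counting error only and compare pooled libraries. The lists hold regions that the authors selected for enrichment, so a ratio above 1 is not in itself a result. The authors called all of these regions at an FDR of 0.01. With the test used here, 36 of 1331 *chico* regions and 5 of 763 IPC regions passed. Adjusted over listed regions only, as in the IPC list, 85 *chico* regions passed. A region that did not pass here is still one of the authors' calls, and the reason for the difference from their calls was not tested. Over the lists as a whole, the 1331 *chico* regions had a median enrichment of 1.10 and a median width of 1395 bp, and the 763 IPC regions had a median enrichment of 1.02 and a median width of 6569 bp. Coordinates are those of the lists, and the genome build is not given in the sources used here.

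Enrichment was highest at the genes of 2 extracellular modulators, *cv-2* and *dally*, both in *chico*. These were at passing regions, which is 2 of the 7 members listed, while 36 of all 1331 *chico* regions passed (2.70%). Members were chosen with earlier results of these data known, so nothing is read from this contrast. The other 5 members had enrichments of 1.08 to 1.15 and did not pass. At an unadjusted exact p under 0.05 were 5 of the 7 members (71.4%), near the 61.4% of all *chico* regions. The median enrichment of the 7 was 1.11, and 4 of them were above the list median. After IPC ablation 0 of the 4 members passed, against 0.655% of all regions (5 of 763), and 0 of the 4 had an unadjusted exact p under 0.05, against 14.8% of all regions.

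**Figure D1:**
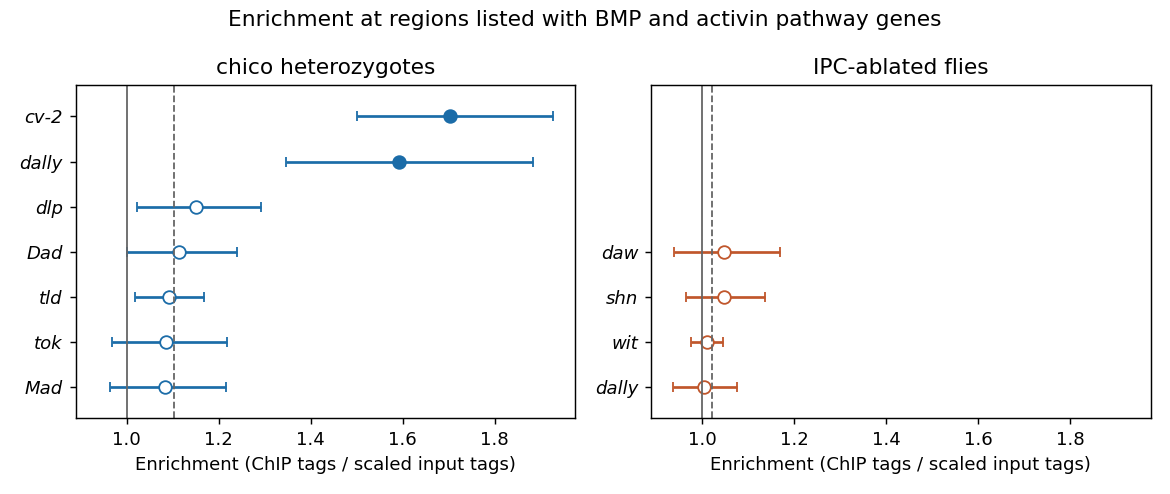
Enrichment (ratio of ChIP to scaled input tags, x axis) at the region listed with each gene, in *chico* heterozygotes (left, 7 genes) and IPC-ablated flies (right, 4 genes), with 95% exact binomial intervals. Filled points passed the test, the solid line is at 1 and the dashed line is the median of all regions of the list (1.10 and 1.02). The intervals of *cv-2* and *dally* in *chico* lie above those of all other regions shown.

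*cv-2* (FBgn0000395) encodes Crossveinless-2, a secreted protein that binds BMPs and is needed for BMP signaling in the crossveins of the wing. Its *chico* region (2R, 17266273 to 17267295) had 690 tags in ChIP DNA and 406 in scaled input. The ratio of 1.70 (interval from 1.50 to 1.93, adjusted exact p = 1.84e-14) was the 7th highest of 1331. The region spans the 5' end of the gene, from -328 to 694 bp relative to it, and it is listed with no other gene. The excess of ChIP over input tags was 284 ± 33.1 (counting SE, with scaled input tags taken as counts), the 6th largest of the list. The IPC list does not hold *cv-2*, and the nearest IPC region lay 90422 bp from the gene.

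*dally* (FBgn0011577) encodes a glypican, a cell-surface proteoglycan whose heparan sulfate chains bind Dpp and other secreted signals. Its *chico* region (3L, 8820314 to 8820828) had 369 tags in ChIP DNA and 232 in scaled input. The ratio was 1.59, with an interval from 1.35 to 1.88 (adjusted exact p = 1.90e-05), and ranked 12th. It spans the 5' end of the gene from -292 to 222 bp, and its width of 515 bp is the smallest of all *chico* regions. The excess was 137 ± 24.5 tags, which ranked 83rd. Over this short segment *dally* had the highest ChIP density of the members, at 717 ChIP tags per kb against 450 scaled input tags per kb. The lower bounds at *cv-2* and *dally* are above the upper bounds of the other 5 *chico* members, of which the highest is 1.29 at *dlp*, while the intervals of *cv-2* and *dally* overlap each other.

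*dally* is the single member that both lists hold, but the lists place different DNA with it. The IPC region (3L, 8827666 to 8832919) lies inside the gene from 7060 to 12313 bp downstream of the 5' end, and 6838 bp separate it from the *chico* region. Here 1641 tags came from ChIP DNA and 1633 from scaled input, with a ratio of 1.01 and an interval from 0.938 to 1.08 (exact p = 0.451). The whole of *CG32026*, a gene within the *dally* span, lies in the same region. With a single input factor for the whole list in place of one per chromosome arm, this value was 0.998. No IPC region covers the 5' end of *dally*, so the tags there after IPC ablation were not analysed. The difference between genotypes was not tested because the regions and the input scaling differ.

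*dlp* (FBgn0041604) encodes Dally-like, the other fly glypican with a role in morphogen spread. Its *chico* region (3L, 14659760 to 14661034) had 623 tags in ChIP DNA and 542 in scaled input. The ratio of 1.15 (interval from 1.02 to 1.29) ranked 225th, with an exact p of 0.00952 before and 0.786 after adjustment. Unlike the region at *dally*, it lies far inside the gene, from 34040 to 35314 bp downstream of the 5' end of a gene of 38997 bp. It is listed with *ome* as well, a gene at a listed distance of 5571 bp, so the region cannot be assigned to *dlp* alone. A further *chico* region, listed with *CG9628* and *shd*, lay 11044 bp outside *dlp* on its 5' side and had an enrichment of 1.09.

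*tld* and *tok* are neighbours on 3R and encode related metalloproteases, Tolloid and Tolkin. Tolloid cleaves the BMP antagonist Sog, and Tolkin, also named Tolloid-related, can process Dawdle. The *chico* region at *tld* (FBgn0003719; 3R, 20574975 to 20579032) had 1738 tags in ChIP DNA and 1593 in scaled input. This gave a ratio of 1.09 with an interval from 1.02 to 1.17 (exact p = 0.00629 before and 0.639 after adjustment). It was broad for this list: 4058 bp wide, with 1320 of the 1331 regions narrower, it covered 94.7% of the *tld* gene and began 120 bp beyond the end of *tok*. Its excess of 145 ± 57.7 tags was similar to that at *dally* in size, but was spread over a longer segment, at 35.7 excess tags per kb against 266 per kb at *dally*.

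The *chico* region listed with *tok* (FBgn0004885; 3R, 20541957 to 20543024) lies 5' of the gene, from -3462 to -2395 bp. ChIP DNA gave 631 tags there and scaled input gave 581, with a ratio of 1.09 and an interval from 0.969 to 1.22 (exact p = 0.0796). Its input density of 544 tags per kb was the highest among the members, and its ChIP density was 591 tags per kb. A second region, which the list gives to *CG13627*, lay only 155 bp further upstream and had 598 tags in ChIP DNA and 510 in scaled input. Its ratio was 1.17, with an interval from 1.04 to 1.32 (exact p = 0.00446 before and 0.587 after adjustment). With the region of *asp* on the other side, 4 *chico* regions lay within 20 kb of *tok* or *tld*, and none passed. The IPC list has 20 regions on the whole of 3R, and the nearest to *tld* was 1852217 bp away.

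*Mad* (FBgn0011648) encodes the Smad protein that BMP receptors phosphorylate. Its *chico* region (2L, 3151820 to 3153051) is intragenic, from 6579 to 7810 bp downstream of the 5' end of a gene of 13147 bp. With 607 tags in ChIP DNA and 561 in scaled input, its ratio of 1.08 (interval from 0.963 to 1.22, exact p = 0.0940) was the lowest of the 7 members and 1002nd of the list. At this depth an enrichment of 1.10 was the smallest with an exact p under 0.05, and the value at *Mad* was below it. The list names *toc* for the same region, at a distance of 7822 bp.

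*Dad* (FBgn0020493), Daughters against dpp, encodes an inhibitory Smad that BMP signaling itself induces. The *chico* region paired with it (3R, 12897235 to 12898651) lies beyond the 3' end of the gene by 1100 bp, and the list places it on the 5' side inside 2 other genes, *ns1* and *mRpS11*. Here ChIP DNA gave 726 tags and scaled input 652, with a ratio of 1.11 and an interval from 1.00 to 1.24 (exact p = 0.0246 before and 1 after adjustment). Neither Smad gene had a listed region at its 5' end.

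**Figure D2:**
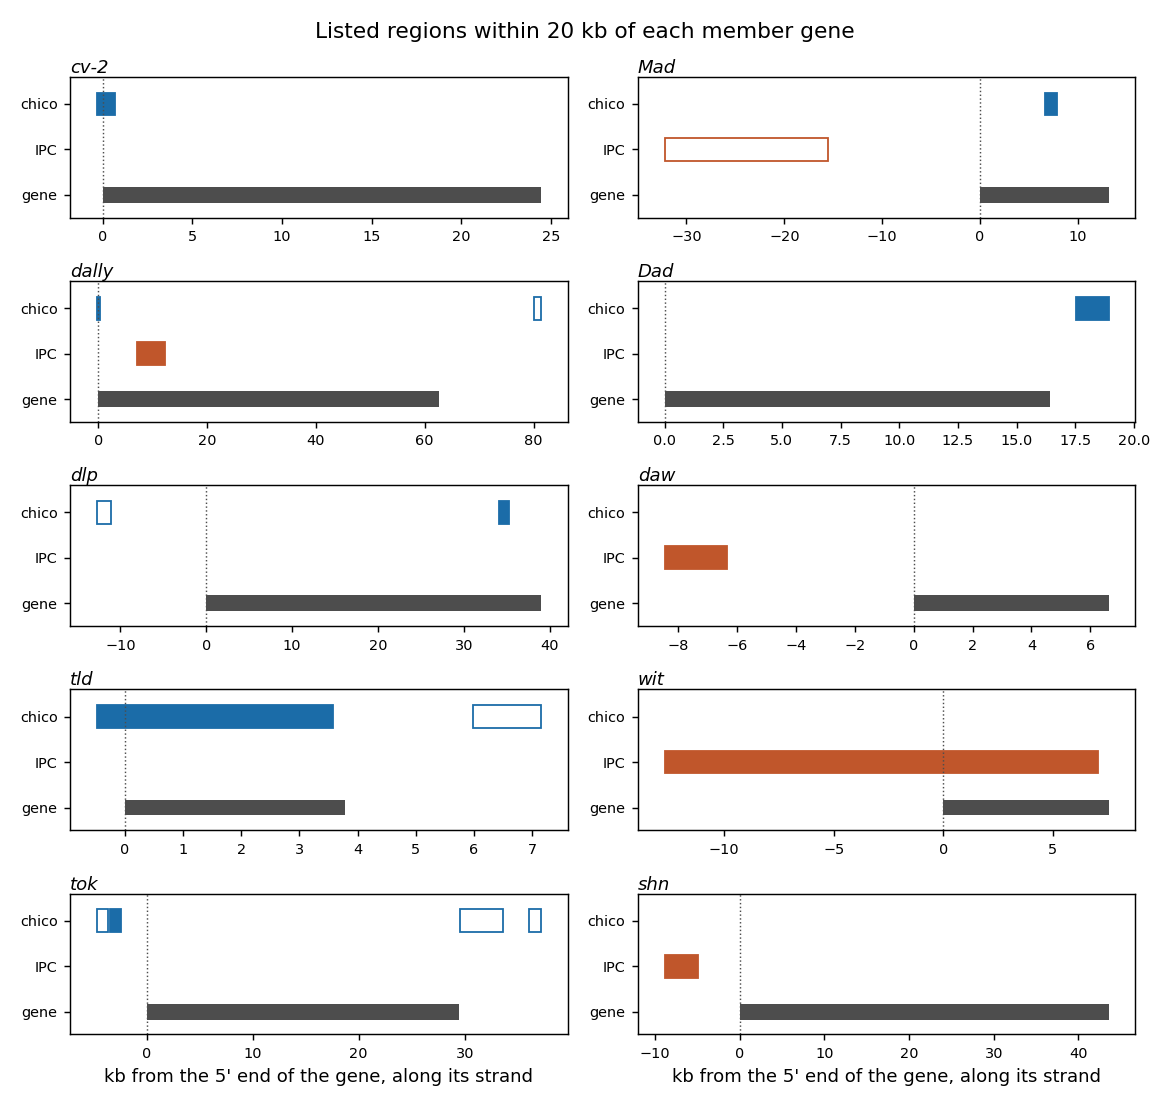
Regions of the *chico* list (blue) and the IPC list (orange) within 20 kb of each gene (grey bar), in kb from the 5' end of the gene along its strand (x axis, a separate scale for each gene). Filled boxes are listed with the gene and open boxes are listed with other genes. The *chico* regions of *cv-2*, *dally* and *tld* span the 5' end, as does the IPC region of *wit*, and at *dally* the boxes of the lists lie 6838 bp apart.

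*daw* (FBgn0031461) encodes Dawdle, an Activin-like ligand of the Babo receptor that signals through Smox. Its IPC region (2L, 2797046 to 2799175) had 661 tags in ChIP DNA and 631 in scaled input. The ratio was 1.05, with an interval from 0.938 to 1.17 (exact p = 0.210), and ranked 131st of 763. The region ends 6343 bp upstream of *daw* and lies wholly inside another gene, *Syt1*. At a total of 1292 tags, the smallest enrichment with an exact p under 0.05 was 1.10. The *chico* list does not hold *daw*, and its region nearest to the gene was 20938 bp away, listed with *Duox* and *CG3119*.

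*wit* (FBgn0024179) encodes Wishful thinking, a type II receptor required at the neuromuscular junction. Its IPC region (3L, 4064622 to 4084443) was 19822 bp wide and took in 93.7% of *wit*, the whole of *Faa* and 10375 bp of *Gad1*. ChIP DNA gave 6623 tags and scaled input 6551, the most of any member, with a ratio of 1.01 and an interval from 0.977 to 1.05 (exact p = 0.268). A ratio averaged over such a width cannot show a narrow site within it. The position that the IPC list gives for the region is at -86 bp from the 5' end of *wit*, and the midpoint of the region is at -2819 bp. How the list defines this position is not given, so it is not read as a centre or a summit. In *chico* the nearest region was 32632 bp from the gene.

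*shn* (FBgn0003396) encodes Schnurri, a zinc finger protein that acts with Mad to repress transcription, above all of *brk*. Its IPC region (2R, 7052457 to 7056464) had 1171 tags in ChIP DNA and 1118 in scaled input, with a ratio of 1.05 and an interval from 0.964 to 1.14 (exact p = 0.139). It ends 4861 bp upstream of the gene and is listed with no other gene. With a single input factor for the list the value was 1.01. In *chico* the nearest region to *shn* was 55040 bp away.

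**Figure D3:**
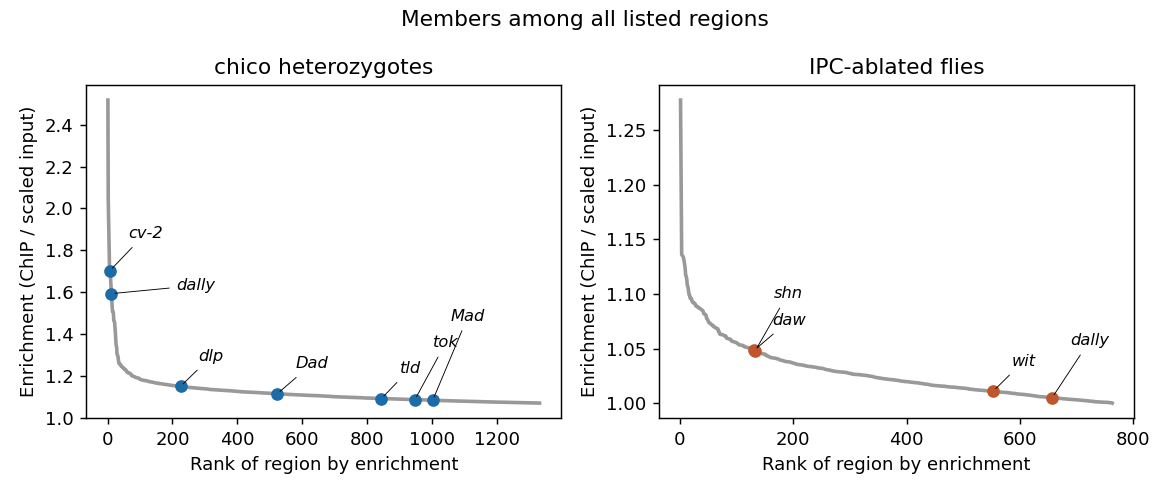
Enrichment (ratio of ChIP to scaled input tags, y axis) of all listed regions against their rank (x axis), with members marked, in *chico* heterozygotes (left, 1331 regions) and IPC-ablated flies (right, 763 regions; the y scales differ). *cv-2* and *dally* are on the steep part of the *chico* curve at ranks 7 and 12, and the other members are on its flat part, at ranks 225 to 1002.

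Tag densities give the ChIP and input sides of each ratio. In the *chico* regions of the members, ChIP densities were between 428 tags per kb (*tld*) and 717 tags per kb (*dally*), and scaled input densities were between 393 (*tld*) and 544 tags per kb (*tok*). The medians of all *chico* regions were 488 ChIP and 441 input tags per kb. *cv-2* had 674 ChIP tags per kb, above the list median, while its input density of 397 tags per kb was below the median. *tok* was likewise above the median in ChIP density, but its input was too. After IPC ablation the members' regions held between 292 (*shn*) and 334 ChIP tags per kb (*wit*), and between 279 and 330 scaled input tags per kb, and the largest difference was 14.1 tags per kb, at *daw*.

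**Figure D4:**
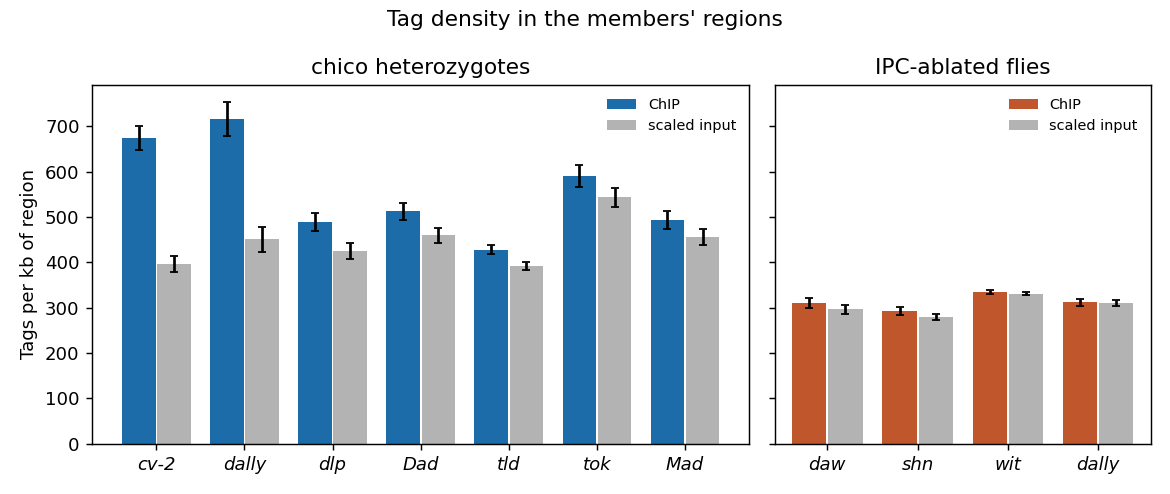
ChIP tags (coloured bars) and scaled input tags (grey bars) per kb of the region listed with each gene, in *chico* heterozygotes (left) and IPC-ablated flies (right). Error bars are counting errors (the square root of the tags, for input with its scaling factor). The gap between the bars is widest at *cv-2* (674 against 397 tags per kb) and *dally* (717 against 450 tags per kb) in *chico*.

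Position along the gene varied among the members. The listed region spanned the 5' end for 3 of the 7 *chico* members (*cv-2*, *dally* and *tld*) and for 1 of the 4 IPC members (*wit*). It lay wholly upstream for *tok*, *daw* and *shn*, within the gene for *Mad*, *dlp* and the IPC region of *dally*, and beyond the 3' end for *Dad*. The *chico* list as a whole places 32.6% of its pairs on the 5' side inside a gene, 32.3% 5' of it, 28.0% on the 3' side inside and 7.10% 3' of it. In the IPC list these shares are 48.0%, 19.4%, 26.6% and 6.03%. The region was listed with the member alone for 4 of the 7 *chico* members and 1 of the 4 IPC members, against 60.7% and 75.6% of all regions with a single gene. None of the 11 regions of members overlapped a region of the other list, and such overlap was uncommon in general, at 6.16% of all *chico* regions (82 of 1331) and 10.6% of all IPC regions (81 of 763). With so few regions, 0 of 11 cannot be set apart from these shares.

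Other genes of TGF-β signaling were looked up in a list of 46 genes that includes the 10 members. Of the other 36 genes, 6 had a region in *chico*, 8 had one after IPC ablation and 4 had both, and none was at a passing region. Their median enrichment was 1.09 in *chico* and 1.01 after IPC ablation, close to the medians of all regions. No region was listed with the BMP ligands *dpp*, *gbb* and *scw*, with *Actbeta*, *myo* or *mav*, with the type I receptors *tkv*, *sax* and *babo*, with the type II receptor *put*, or with the Smads *Med* and *Smox*. These genes were looked up by symbol and CG number. Among ligands, receptors and Smads, the lists therefore held *Mad* and *Dad* in *chico* and *daw* and *wit* after IPC ablation, all at regions that did not pass.

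Of the 16 genes for extracellular modulators, the *chico* list named 9 and the IPC list 6, but 5 of the 16 are members, which were included because a list names them. Of the other 11, the *chico* list named 4 and the IPC list 5. The lists name 2042 and 1012 genes, which equal 11.4% and 5.66% of the 17872 genes in the RefSeq table, and since the pathway list was also drawn up with results known, nothing is read from these counts. In both lists were *dally*, *Fs* (Follistatin, which binds activins), *ttv* (an enzyme of heparan sulfate synthesis) and *magu* (Pentagone, a secreted BMP modulator that binds glypicans), while *cv-d* was in *chico* only and *nord* and *vkg* after IPC ablation only. *magu* and *cv-d* are listed under their CG numbers. At *magu* the *chico* region had 882 tags in ChIP DNA and 807 in scaled input (ratio 1.09, interval from 0.992 to 1.204) and lay inside a broad IPC region of 25762 bp with 9559 tags in ChIP DNA and 9548 in scaled input (ratio 1.00, interval from 0.973 to 1.03). At *Fs* the enrichment was 1.14 in *chico* and 1.03 after IPC ablation, in regions 4718 bp apart.

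Among nuclear cofactors and targets, *bi* (*omb*), a Dpp target of the wing, was in both lists. Its *chico* region had 566 tags in ChIP DNA and 484 in scaled input, with a ratio of 1.17 and an interval from 1.03 to 1.32 (exact p = 0.00620 before and 0.638 after adjustment). Its IPC region, with 894 and 889 tags, had a ratio of 1.01 and an interval from 0.915 to 1.10. *zen* was in the *chico* list only, at an enrichment of 1.09. The Dpp targets *salm* and *salr* were in the IPC list only, at enrichments of 1.00 and 1.03. Of the 5 pathway genes in both lists, *magu* alone had overlapping regions, against 33.2% of all genes in both lists (84 of 253).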

How the data were processed

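ChIP DNA and input DNA were sequenced in 8 samples (2 ChIP and 2 input per genotype). Per the submitters' processing notes, CASAVA 1.6 and Bowtie were used (the version of Bowtie and the genome build are not given in the sources used here). The authors merged replicate reads before alignment and called regions with PeakSeq at an FDR of 0.01. The deposited ChIP tags are counts per region, and the deposited input tags are a score, scaled by a factor per chromosome arm and rounded up. The deposited enrichment is their ratio before rounding. The deposited p-value was used only to derive the number of candidate regions. Listed regions hold 1012591 ChIP tags in *chico* and 2305347 in IPC ablation, and intervals cover counting error only.

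Each region was counted once. P-values were adjusted over 26819 candidate regions in *chico* (derived from ranks and both deposited p-values) and over the 763 listed regions in IPC ablation. For the IPC list the deposited p-values did not yield a number of candidate regions. Groups came from sample titles. All members, and all genes of the pathway list that a list holds, are named. Members and lists were chosen with earlier results of these data known. Input factors were recovered from the scaled values, of which those on arms with a factor (2093 of 2094 regions) were whole multiples within 0.02. CG numbers came from the RefSeq gene table of Release 6, which matched 46 of 46 genes. The test and its intervals were checked on simulated data with adjustment over the listed regions only. The adjustment over 26819 candidate regions used for *chico* was not part of this check. Alternatives concerned adjustment, input scaling, test, distance and overlap. Computations ran in Python 3.11.15 with pandas 2.3.3, SciPy 1.17.1 and NumPy 2.4.6, and plots in Matplotlib 3.10.9.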

Additional observations from a re-analysis of the deposited data

How the results depend on the processing

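The scaling of the input moved the results most. With input tags lowered by 5%, 144 *chico* and 312 IPC regions passed in place of 36 and 5, and 1 IPC member passed, *wit* (enrichment 1.06, adjusted exact p = 0.00101), as did *tld* in *chico* (1.15, adjusted exact p = 0.00892). With input raised by 5%, 0 IPC regions passed, and the IPC enrichments fell under 1 for all 4 members: *daw* 0.999, *shn* 0.998, *wit* 0.963 and *dally* 0.957. Their highest value before this change was 1.048 (*daw*), so a rise of 5% had to bring all 4 under 1. With a single input factor per list, 2 IPC regions passed and *dally* was at 0.998 after IPC ablation. Adjusted over listed regions only, 85 *chico* regions passed. At an adjusted p of 0.05, 12 IPC regions passed. An adjustment of the IPC list over the *chico* candidates, added after seeing the data, left 0. *cv-2* and *dally* in *chico* passed under all 7 alternatives. A listed distance of at most 5 kb or of at most 1 kb left 2 of the 4 IPC members (*wit* and *dally*), and an enrichment of at least 1.2 left 2 *chico* members and 0 IPC members. The causes of these changes were not tested beyond the settings themselves. Promoter motifs were not counted, since no promoter sequence was used here. No paired analysis was possible because the lists pool the replicates, and for the same reason no replicate could be left out.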
